A study of Mus musculus with 5 samples.

Results

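H3K36me3 was compared between untreated mouse embryonic stem cells (ESCs) and the same line given L-proline, through 6091 pairs of domains matched between the deposited island lists. The members are the 11971 autosomal H3K36me3 islands of untreated cells and the 16363 of treated cells, out of 73415 islands in the 4 lists of the series. Islands no more than 5 kb apart within a list were joined into domains. A pair was kept where 1 domain of each condition overlapped the other and no further domain.

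Both libraries came from TBV2, a wild-type line of strain 129/SvP, seeded at low density on gelatin without feeder cells, in medium with LIF and no non-essential amino acids. Untreated cells were kept for 5 days in this medium, and the L-proline-induced cells (PiCs) for 5 days with 500 µM L-proline added. Chromatin was immunoprecipitated with 1 antibody to H3K36me3 and sequenced on a SOLiD 4 instrument, with 1 library per condition. With no replicate, differences are described and not tested. All intervals are 95% intervals that cover counting error or the spread over domains, not the spread between cultures.

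H3K36me3 is histone H3 carrying 3 methyl groups on lysine 36. The enzyme SETD2 places it while travelling with elongating RNA polymerase II, so the mark usually covers the bodies of transcribed genes and tends to be denser toward their 3′ ends. DNA methyltransferases of the DNMT3 family bind it. L-proline is known to move mouse ESCs from the naive state toward a flat, motile one.

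Of the 8304 ESC domains 6091 had a PiC partner of their own, which is 73.4% of the domains and 76.5% of their tags. In PiCs the same pairs were 60.8% of 10020 domains and held 74.8% of the tags. The remaining ESC domains were 737 with no PiC partner, 685 that met several PiC domains and 791 whose only partner also met another ESC domain. For PiCs these numbers were 2045, 402 and 1482. The ratios below do not describe these domains. The paired domains had nearly the same typical extent, with a median span of 19.2 kb in ESCs and 19.4 kb in PiCs. A median ESC pair member held 1744 tags and its PiC counterpart 1182.

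The signal of a domain was its tag count divided by its joined span in kb, gaps included. It ranged from 27.0 to 542.4 tags per kb in ESCs, with a median of 88.2, and from 17.8 to 279.8 in PiCs, with a median of 58.4. These values are not scaled to depth, and the depth of the libraries is unknown. The PiC value was 0.654 times the ESC value in the median pair, so each log2 ratio was centred on that median (-0.61). A centred ratio of 0 thus means the typical relation between the lists, and a statement that a domain was higher or lower in PiCs is relative to the other autosomal domains.

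H3K36me3 density was similar across most paired domains after centring. The log2 ratio had a standard deviation of 0.45 over pairs and quartiles of -0.28 and 0.31, and it ran from -1.92 to 2.80. In all, 5006 pairs (82.2%) lay within 1.5-fold of the median. At least 2-fold higher density in PiCs was found for 95 pairs, 1.56% of those compared, and at least 2-fold lower density for 61 pairs, 1%. Together these are 2.56% of the pairs. The median counting interval of a ratio reached 0.11 to either side, so in a typical pair counting error is small beside the spread over pairs. The higher pairs held fewer tags, with medians of 380 in ESCs and 225 in PiCs. Among the 10 highest regions named below the interval reached up to 0.37 to either side. The interval lay past the 2-fold limit itself in 44 of the higher and 38 of the lower pairs. The excess of higher over lower pairs depended on the centre. With the ratio of the summed tags per kb as the centre the median pair stood at 0.14, and the counts became 192 higher and 32 lower, a higher share of 85.7% against 60.9%.

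The limit passed through a continuous distribution. The 3 higher pairs nearest to it had ratios of 1.0001, 1.0002 and 1.0005, and the nearest pairs outside had 0.9971, 0.9971 and 0.9989. The 3 lower pairs nearest to the limit had -1.0133, -1.0094 and -1.0020, and the nearest outside had -0.9949, -0.9901 and -0.9899.

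Domains that were higher in PiCs came from sparse ESC domains, and those that were lower came from dense ones. The ESC density of the 95 higher pairs had a median of 43.6 tags per kb and a range of 28.3 to 80.0, below the median of all pairs in 95 of 95. The 61 lower pairs had a median of 230.1 (68.2 to 494.4) and lay above it in 59. ESC density is a part of the ratio, so this describes the extremes and is not an independent measure. In PiCs the groups were close, with medians of 70.3 and 63.9 tags per kb.

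Across all pairs the ratio fell with the mean density. In the quintile of pairs with the lowest geometric mean of both densities the median ratio was 0.23, and in the quintile with the highest it was -0.27. The Spearman correlation was -0.43 over 6091 pairs and Pearson's r -0.41, pairs that share 2 libraries and whose densities enter both axes. None of 1218 pairs in the densest quintile was 2-fold higher, and 31 were 2-fold lower. When each ratio was centred on pairs of like density, 68 of the 95 higher and 34 of the 61 lower pairs still passed 2-fold.

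**Figure D1:**
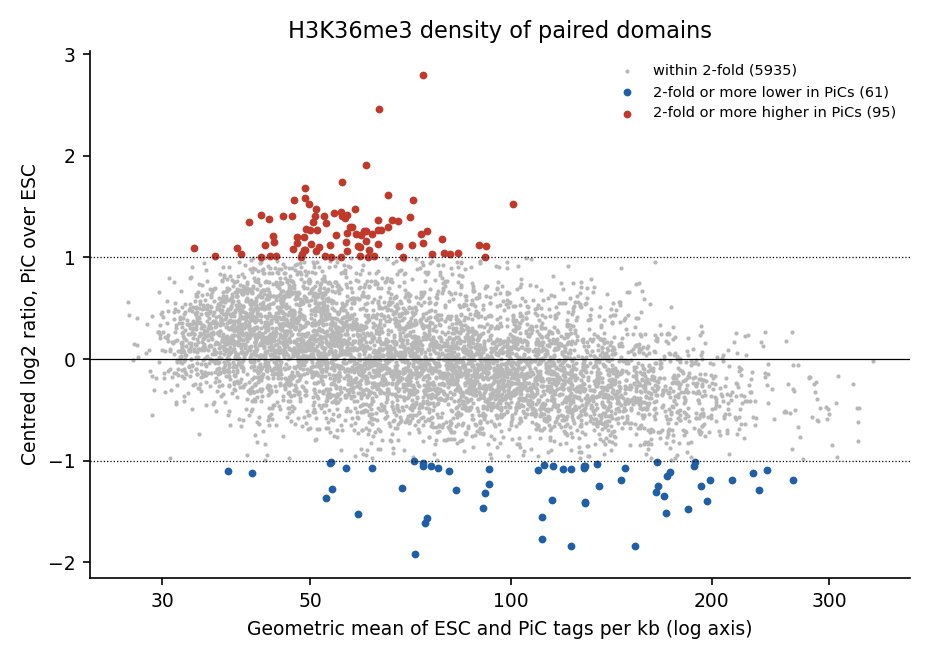
Each point is 1 of 6091 paired H3K36me3 domains, with the geometric mean of its ESC and PiC tags per kb on a log axis against its centred log2 ratio. Red points are the 95 domains at least 2-fold higher in PiCs, blue points the 61 at least 2-fold lower, and dotted lines mark 2-fold; the cloud slopes from a median of 0.23 in the sparsest quintile to -0.27 in the densest.

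At the 2-fold limit the extreme domains were narrower than the rest. The higher pairs had a median ESC span of 9.2 kb (interval 8 to 10.2) and the lower pairs 11.6 kb (9.8 to 16), against 19.2 kb for all pairs. For the lower pairs this rested on the limit and the pairs compared: at 1.5-fold their median was 18.6 kb (16.2 to 20), and among pairs of like extent, centred on their own median, it was 18.6 kb (14.4 to 44.2) against 24.8 kb for all such pairs. ESC domains under 10 kb made up 57.9% of the higher and 37.7% of the lower pairs, and 24.9% of all pairs. Among domains of 5 to 10 kb 3.77% were higher and 1.46% lower, whereas among those of 50 to 100 kb the shares were 0.272% and 0.408%. The median ratio went the same way, from 0.18 at 5 to 10 kb to -0.18 at 50 to 100 kb and -0.22 in the 122 domains of at least 100 kb. Domains under 5 kb stood at 0.11, below the next class. The spread also narrowed, from a standard deviation of 0.51 under 5 kb to 0.33 at 50 to 100 kb. This spread includes counting error, which is larger in domains with fewer tags.

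**Figure D2:**
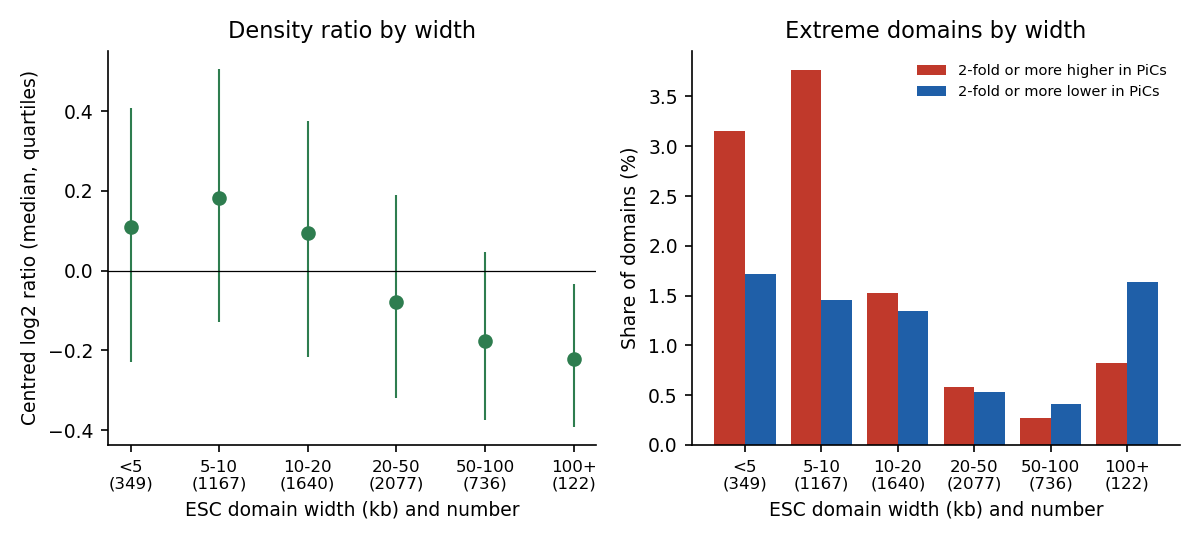
Left, the median centred log2 ratio of paired domains in 6 classes of ESC width, with bars from the first to the third quartile. Right, the share of each class at least 2-fold higher (red) or lower (blue) in PiCs; both shares are below 1% in domains of 20 to 50 kb and wider, except 1.64% lower in the 122 domains of at least 100 kb, which is 2 domains.

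Many higher domains were short in PiCs. In 51 of the 95 the PiC span was 0.5 times the ESC span or less, which held for 6.68% of all pairs. The PiC span is a part of the ratio, so this share describes the extremes and is not an independent measure. These 51 went from a median span of 9.8 kb in ESCs to 2.0 kb in PiCs. Their median density was 40.7 tags per kb in ESCs against 67.8 in PiCs. Total tags were also compared, each counted over the islands of its own list, not divided by span, and centred on the median pair. In total tags 46 of these 51 were on the lower side, with a median centred log2 ratio of -0.72. Of all 95 higher pairs 49 were on the higher side by this measure, with a median of 0.06. The density and the total thus pointed in opposite directions in most of this group, called remnants below. The total is the density times the span, so a group picked for short PiC spans leans to the lower side by construction. Tags outside the called islands are not in the lists, so the signal on the flanks in PiCs is not known. With 1 count per island, the ESC density within the stretch kept in PiCs is not known either. The 2 densities of a remnant thus describe different stretches, and a rise within the kept stretch cannot be read from them. In pairs whose PiC span was under 0.25 times the ESC span, 25.2% counted as higher. In those with spans alike within 0.8 to 1.25 times, 0.592% did so. Here too the PiC span enters both the grouping and the ratio.

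The place of the remnant within the ESC domain varied. Of the 47 higher pairs whose PiC domain lay inside the ESC domain and was at least 2 kb shorter, 34.0% had lost 90% or more of the difference at 1 end. For all 1117 such pairs this was 48.6%. The median share lost at the more affected end was 72.7% in the higher pairs and 88.9% in all.

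Domains of like extent were looked at apart, a split made after the values had been seen. Spans agreed within 0.8 to 1.25 times in 4225 pairs (69.4%). Among them 25 were higher, with a median density of 51.5 tags per kb in ESCs against 78.8 in PiCs, and 32 were lower, with 224.8 and 63.5. Centred on the median of these 4225 pairs alone, the counts were 43 higher and 23 lower, so the side with more extremes depended on the centre here. With spans this close the total follows the density by construction, and in total tags the medians were 1.32 and -1.11.

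A larger share of the lower pairs than of all pairs had a longer span in PiCs. The 61 lower pairs comprised 32 of like span, 25 in which the PiC span was over 1.25 times the ESC span and 4 in which it was under 0.8 times. The longer spans were 41.0% of the lower pairs and 14.6% of all pairs. A PiC span at least 2 times as long was found for 13 of the lower pairs, or 21.3%, against 4.93% of all. Since the PiC span is a part of the ratio, these shares are not an independent measure either. In these 13 the median ESC span was 6.2 kb and the median PiC span 19.8 kb. Total tags were on the higher side in each of these 13, with a median of 0.35. A group picked for long PiC spans leans to that side by construction. Here a short dense ESC domain met a longer PiC domain that was sparser over its joined span, gaps included. In 10 of the 13 the PiC domain was several islands joined over gaps. Per kb of island bases alone, 4 of the 13 stayed at least 2-fold lower. Where the ESC domain lay inside a PiC domain at least 2 kb longer, 13 of 20 lower pairs had 90% or more of the addition at 1 end, or 65.0%, against 52.7% for all 1033 such pairs.

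**Figure D3:**
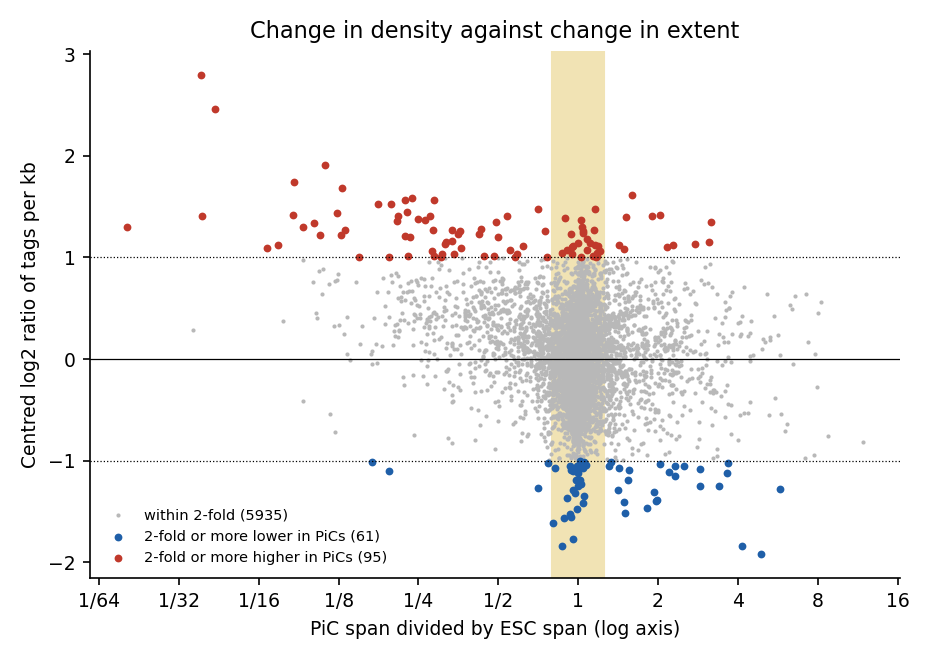
The PiC span of each paired domain divided by its ESC span, on a log axis, against the centred log2 ratio of tags per kb; colours as for the plot of ratio against mean density, and the band marks spans alike within 0.8 to 1.25 times. Of the 95 higher domains 51 lie at or left of 1/2, while 32 of the 61 lower domains lie in the band. Both spans enter both axes.

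The single regions were ranked among pairs with at least 500 tags in both libraries together, and positions are on mouse build mm9. The 10 highest lay on 10 chromosomes, and the 10 lowest on 8. Of the highest, 7 had a PiC span 0.5 times the ESC span or less, and each of those 7 was on the lower side in total tags. Of the lowest, 8 were also on the lower side in total tags.

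The highest ratio in this ranking belonged to a domain of chromosome 2 (chr2:150850201-150864200). It held 468 tags over 14 kb in ESCs, or 33.4 per kb, and 72 tags over 0.6 kb in PiCs, or 120.0 per kb. Its ratio was 2.46 (interval 2.08 to 2.82) by density and -2.01 in total tags. The PiC domain lay 4.4 kb from the low-coordinate edge of an ESC domain made of 2 islands. Next came chr11:43362201-43376200, where the span went from 14 kb to 1.8 kb and the density from 33.9 to 71.1 tags per kb, and the ratio was 1.68 (1.39 to 1.97).

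Other remnants in this group mostly lay at an end of the ESC domain. On chromosome 13 (chr13:105444401-105451600) the span went from 7.2 kb to 1.6 kb at an identical high-coordinate edge, and density from 51.3 to 99.4 tags per kb. This was the only region of the 10 that touched an H3K9me3 island, in both conditions. At chr3:122629001-122639200 the low-coordinate edge was identical and the PiC span ended 8.2 kb short of the other, with densities of 36.3 in ESCs and 68.5 in PiCs. This ESC domain was 2 islands joined over a gap, and the PiC island lay over the low-coordinate island. Per kb of island bases its ratio was 0.73, below 2-fold. At chr16:64812801-64830600 a 2.2 kb PiC domain lay at the high-coordinate end of the 17.8 kb, with 40.7 and 72.3 tags per kb. The domain at chr1:23874801-23884600 went from 9.8 kb to 2.8 kb (34.0 and 65.7 tags per kb), again at that end. The domain at chr15:35569601-35586200 went from 16.6 kb to 1.4 kb (31.9 and 55.7) and kept neither edge. By density these 5 regions had ratios of 1.42 to 1.57. In total tags all 5 were below 0, from -0.17 on chromosome 1 to -2.08 on chromosome 15.

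The remaining 3 of the highest regions had more signal on every measure. At chr19:45096201-45102200 ESCs had 277 tags over 6 kb (46.2 per kb) and PiCs 887 tags over 9.6 kb (92.4 per kb). Its ratio was 1.61 (1.42 to 1.81), and 2.37 in total tags. The domain at chr12:113970001-113981200 went from 480 tags over 11.2 kb to 1711 tags over 22.8 kb, or from 42.9 to 75.04 per kb, and the ratios were 1.42 and 2.52. The third, chr14:56446201-56453600, changed little in extent, from 7.4 kb to 8.6 kb, with densities of 37.8 and 68.7 tags per kb and ratios of 1.47 and 1.77.

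The lowest regions included several with lower density between edges that moved by no more than 2 kb. At chr1:121308201-121317200 ESCs had 2596 tags over 9 kb, or 288.4 per kb, and PiCs 411 tags over 7.8 kb, or 52.7 per kb. The ratio was -1.84 (-1.99 to -1.69). An ESC H3K9me3 island touched this region and a PiC one did not. At chr5:120122401-120135800 the edges moved by no more than 0.4 kb, while density went from 254.0 to 48.7 tags per kb and the ratio was -1.77 (-1.90 to -1.65). The domains at chr2:93692201-93708600 (160.9 and 34.4 tags per kb) and chr9:40609801-40616800 (236.1 and 52.4) had ratios of -1.61 and -1.56. In these 4 regions the ratio in total tags lay between -1.57 and -1.97.

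Among the lowest regions 3 had a clearly longer joined span in PiCs. The lowest ratio of all, -1.92 (-2.17 to -1.66), was at chr3:88588601-88590200, a 1.6 kb ESC domain with 172.5 tags per kb that met a PiC domain of 7.8 kb with 29.9 per kb. In total tags its ratio was 0.44. Similarly chr11:97889201-97893600 went from 4.4 kb to 18.2 kb and from 359.1 to 65.6 tags per kb, with -1.84 by density and 0.28 in total tags. At chr11:74712201-74725600 the span went from 13.4 kb to 20.2 kb and the density from 356.6 to 81.7, and both ratios were negative (-1.51 and -0.85). Each of these 3 PiC domains was 2 islands joined over a gap. Per kb of island bases their ratios were -0.84, -1.64 and -1.22 in the order given. The region of chromosome 3 thus did not reach 2-fold by that measure.

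**Figure D4:**
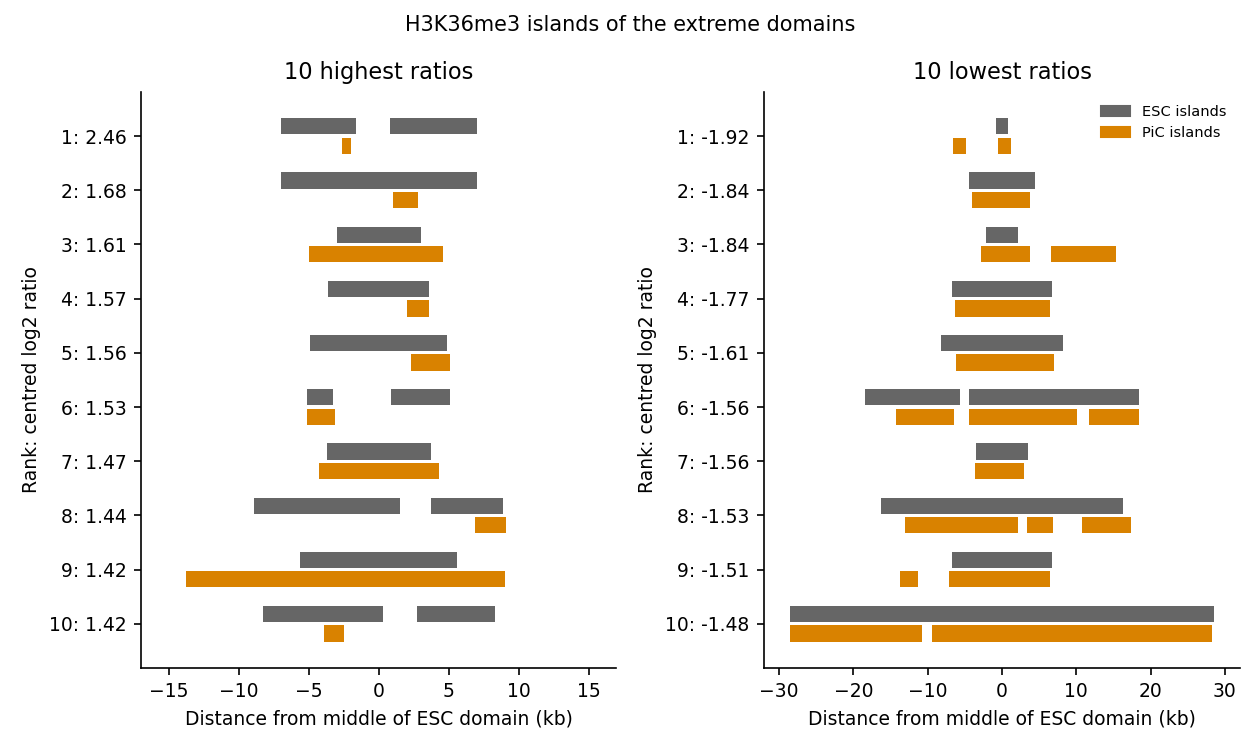
H3K36me3 islands of the 10 highest and 10 lowest paired domains with at least 500 tags, as distance in kb from the middle of the ESC domain; grey bars are ESC islands, orange bars PiC islands, and labels give the rank and the centred log2 ratio. In 7 of the 10 highest the PiC islands fill a small part of the ESC domain. Several of the lowest keep both edges within 2 kb, and in others an edge moves farther.

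Wide domains were ranked apart. Of ESC domains of at least 20 kb, the 5 lowest all kept 0.886 times or more of their extent. At chr1:120526401-120583600 ESCs had 21786 tags, or 380.9 per kb, and PiCs 5084, or 89.5 per kb, over 57.2 kb and 56.8 kb that began at the same position. Its ratio was -1.48 (-1.52 to -1.43). The widest, chr1:138738201-138849000, had 159.8 tags per kb over 110.8 kb in ESCs as 1 island and 42.8 over 106.4 kb in PiCs as 6 islands, a ratio of -1.29. The region chr13:13553201-13605600 likewise went from 1 island to 5, with 104.6 and 26.6 tags per kb and a ratio of -1.36. At chr13:59546001-59578600 (123.8 and 28.1 tags per kb, -1.53) and chr18:80454001-80491000 (159.2 and 35.2, -1.56) PiCs had 3 islands. No H3K9me3 island touched any of these 5.

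The 5 highest wide domains were of both kinds. At chr4:117103201-117163400 a 60.2 kb ESC domain of 3 islands met 1 PiC island of 1.2 kb with 88 tags. The ratio there was 1.30 by density (45.5 and 73.3 tags per kb) and -4.27 in total tags. The PiC domains at chr5:8715801-8752400 (36.6 kb to 1.4 kb) and chr1:64919001-64940800 (21.8 kb to 2 kb) were remnants too, with ratios of 1.41 and 1.30. With 88 to 146 PiC tags the intervals of these 3 were wide, at 0.98 to 1.61, 1.11 to 1.70 and 1.04 to 1.56 in the order given. In contrast chr4:11258401-11311400 kept its extent, at 53 kb and 55.4 kb, and went from 2547 to 4179 tags, or 48.1 to 75.4 per kb. That ratio was 1.26 (1.19 to 1.34), and 1.40 in total tags. At chr15:98959401-98985000 ESCs had 51.6 tags per kb and PiCs 83.0 over 25.6 kb and 26.4 kb, a ratio of 1.30 (1.20 to 1.40).

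Chromosome 15 stood above the other autosomes. The median ratio of its 283 pairs was 0.21 (interval 0.17 to 0.28), which is 1.16-fold, and 195 of them (68.9%) lay above 0. The next highest median was 0.09 on chromosome 10 (0.01 to 0.15), and the lowest was -0.13 on chromosome 6 (-0.16 to -0.05), where 39.2% of 288 pairs lay above 0. Chromosome 15 kept the highest median per kb of island bases alone (0.19), in total tags (0.30) and when centred on pairs of like density (0.19). Among pairs of like extent it was 0.19 (0.10 to 0.25, 177 pairs), against -0.08 on the other autosomes. The difference was present at every width, at 0.15 in domains under 10 kb, 0.18 at 10 to 20 kb, 0.29 at 20 to 50 kb and 0.22 at 50 kb and over.

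Chromosome 15 held 12 of the 95 higher pairs, or 12.6% (interval 6.70 to 21.0), with 4.65% of all pairs, and 1 of the 61 lower ones. In steps of 15 Mb from its low-coordinate end, the median ratios were 0.01 (27 pairs), 0.02 (4), 0.13 (36), 0.28 (27), 0.25 (19), 0.27 (107) and 0.15 (63). From 75000001 to 90000000, 86 of 107 pairs lay above 0. The 5 higher pairs of like extent on this chromosome, singled out after their values were seen, began at 76365401 or beyond. The widest of them, chr15:99607201-99713800, spanned 106.6 kb in both conditions, and its density went from 61.4 to 88.5 tags per kb (ratio 1.14). H3K9me3 domains paired in the same way did not stand apart on this chromosome, with a median of -0.02 (-0.08 to 0.02) that ranked 15 among 19 autosomes.

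**Figure D5:**
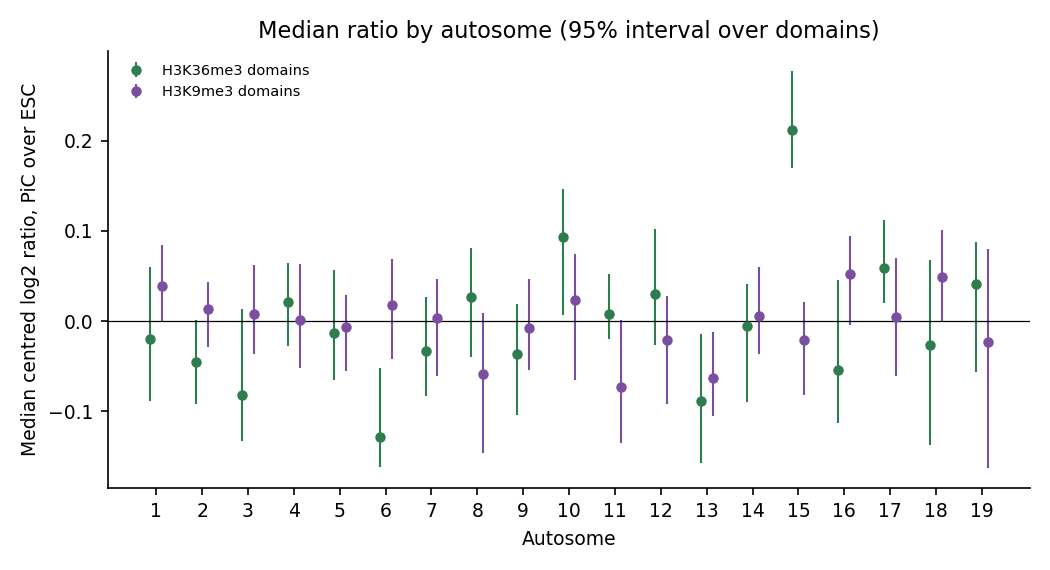
Median centred log2 ratio (PiC over ESC, tags per kb) of paired domains on each autosome, for H3K36me3 (green) and, made in the same way, H3K9me3 (purple); bars are exact 95% intervals of the median over domains. H3K36me3 on chromosome 15 stands at 0.21, with H3K9me3 at -0.02.

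Extremes were found on every autosome. Mouse autosomes have their centromere at the low-coordinate end, and position was taken as a share of the chromosome's covered length. The 25% of each chromosome farthest from the centromere held 43.2% of the higher pairs (interval 33.0 to 53.7) and 36.1% of the lower pairs (24.2 to 49.4), against 32.3% of all pairs. Without chromosome 15 the share of the higher pairs was 38.5% (28.4 to 49.2), against 31.4% of all pairs. The 25% next to the centromere held 16.8% and 16.4%, against 20.4%. Over all pairs the ratio was nearly unrelated to position, with a Spearman correlation of 0.03. The ratios of adjacent pairs had a correlation of 0.06 over 6072 adjacent pairs, which lay a median of 105.8 kb apart.

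Some extremes were neighbours. Within 1 Mb of each other lay 7 pairs of higher domains, 3 of lower domains and 6 of opposite direction. Whether this is more than scattered extremes would give was not tested. The closest lower domains were on chromosome 17, at chr17:37140401-37150200 (261.4 tags per kb in ESCs, 63.9 in PiCs) and chr17:37188001-37215600 (265.3 and 82.7), with no paired domain between them. The closest extremes of all were opposite, on chromosome 7. There chr7:118211001-118225400 went from 400.3 to 115.1 tags per kb, and 41.0 kb away chr7:118254601-118264000 went from 44.4 to 67.5. These regions were chosen after their values were seen.

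H3K9me3 is a mark of silenced chromatin that the pairing did not use. At the main settings, its shares among the higher and lower pairs had intervals that held the share of all pairs. This depended on the settings. An ESC H3K9me3 island touched 19 of the 95 higher pairs (interval 12.5% to 29.5%), 16.4% of the lower (8.15 to 28.1) and 16.2% of all. A PiC island touched 15.8% (9.12 to 24.7), 9.84% (3.70 to 20.2) and 10.8%. Among the 25 higher pairs of like extent, 8 touched an ESC H3K9me3 island and 2 a PiC one. Among the 32 lower pairs of like extent the counts were 3 and 1. Of all 4225 pairs of like extent, 16.0% touched an ESC island and 9.94% a PiC island.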

How the data were processed

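Per the labels' protocols, sonicated chromatin was immunoprecipitated and SOLiD fragment libraries were amplified by PCR. Islands were called with SICER on mm9, per the submitters' processing notes. The sources used here do not state its thresholds, the aligner, duplicate handling or whether the input served as control. Each deposited list gives 1 whole number per island, with no header, which was read as an unscaled tag count. Column 3 was the last base, so 1 was added for the end. With no annotation or genome of mm9 at hand, regions are given by position, no sequence is shown, and marker genes of the labelled cell type were not analysed here.

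Domains, pairs and ratios were computed with scipy 1.17.1, pandas 2.3.3 and numpy 2.4.6 under Python 3.11.15, and the functions were tested on simulated lists. Intervals are Clopper-Pearson for shares and tag ratios, and order-statistic for medians. PCR copies are not independent molecules. Regions were named by rule: the 10 highest and 10 lowest ratios with at least 500 tags, the 5 highest and 5 lowest of at least 20 kb, 3 on each side of each limit, and the extreme chromosomes. The members and rules were chosen with earlier results of these data known.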

Additional observations from a re-analysis of the deposited data

How the results depend on the processing

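No paired analysis was possible because there is a single library of each kind, and no library could be left out. Of 130 values under alternatives 103 stayed within 1.5 times (counts) or the interval (other values); the 27 others follow. The higher pairs (95) numbered 486 with all tags not divided by span, 192 when centred on the ratio of summed tags, 50 with a reciprocal overlap of 50%, 622 at a 1.5-fold limit and 43 with spans alike within 0.8 to 1.25 times, centred anew, a setting added after the data were seen. The lower pairs (61) numbered 305, 32, 42 (within 1.5 times), 463 and 23 in that order. The median width of the higher pairs (9.2 kb) was 14.8 kb when joined over 10 kb, 7.9 kb with islands not joined, 11.2 kb at 1.5-fold and 11.6 kb with spans alike. That of the lower pairs (11.6 kb) was 9.3 kb not joined, 16.8 kb with all tags, 18.6 kb at 1.5-fold and 18.6 kb with spans alike. The distal share of the higher pairs was 55.8% with spans alike. Their share touching ESC H3K9me3 was 29.6% with all tags and 30.2% with spans alike, and that touching PiC H3K9me3 was 6.98% with spans alike. A share that stayed within its interval could still differ from that of all pairs, as given above for H3K9me3. For the lower pairs the ESC share was 4.55% not joined, 7.41% per island bases, 6.89% with all tags and 7.14% with reciprocal overlap, and the PiC share 1.85% per island bases and 2.38% with reciprocal overlap. The cause of these shifts was not tested, beyond the fewer pairs compared under overlap and span limits.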
